A study of Homo sapiens with 3 samples.

Results

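Caveolae are small flask-shaped pits of the plasma membrane. Caveolins shape the pit, cavins coat it from the cytoplasm, EHD2 forms a ring at its neck that keeps it at the surface, and PACSIN2 bends the membrane there. They are abundant in cells under mechanical load, flatten to release membrane when it is stretched, and in breast cancer cells are best known through CAV1. 7 of the 57773 genes in the deposited tables are described here: CAV1 and CAV2, PTRF (now CAVIN1), SDPR (now CAVIN2), EHD2, PACSIN2 and EHD1, a recycling ATPase related to EHD2. EHD2 was chosen by its low value in the M2 library in an earlier analysis of these data and the others were taken because they encode proteins of caveolae or, for EHD1, a paralogue of EHD2, so every value below is a description and none is tested.

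The RNA came from tumorspheres of the established human cell line MDA-MB-231, which stems from a triple-negative breast cancer. Tumorspheres form when such cells are kept from attaching. One library came from spheres transfected with a pcDNA plasmid carrying LINC00273 behind a CMV promoter, one from otherwise wild-type spheres given M2 at 10 µM, a compound of which only this code name is used, and one from untreated wild-type spheres. All were kept for 24 h in ultra-low-adhesion plates, in DMEM with epidermal growth factor, B27, insulin and albumin. Whether transfection was stable or transient, whether the other spheres carried an empty plasmid or vehicle, and whether spheres were pooled is not given in the sources used here. The series title concerns a G-quadruplex in LINC00273, metastasis, stemness and drug resistance.

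With 1 library a group no difference has a replicate check, the ratios compare libraries rather than conditions, and no p-value is given. LINC00273 itself had 0 reads in all 3 libraries, so the transfected spheres' library is named by its label only, as the library labelled LINC00273. Reads on genes numbered 5123199 in that library, 4695535 in the M2 library and 8620534 in the control, of which 42.8%, 39.3% and 54.7% lay on the abundant RNAs RN7SL1 and RN7SK. Of 8 markers of this line, VIM had 8910, 4182 and 11763 reads in the same order of libraries, TWIST1 710, 612 and 1711, FN1 620, 170 and 266, LAMB1 449, 446 and 619, and ZEB1 404, 296 and 248. AXL (87, 32 and 151), CD44 (44, 29 and 86) and EGFR (8, 61 and 95) were lower, and CD44 and EGFR stayed under 100 reads in every library. Not all markers of the line were thus well measured, and its identity is taken from the labels. The 6 markers expected to be absent summed to 14.3, 10.2 and 15.3 CPM, which are reads scaled to a common library size by TMM (an estimate of that size from genes of middling ratio). Most of each sum came from ERBB2, with 50, 33 and 61 reads, more than CD44 in the first 2 libraries. EPCAM had 3, 1 and 10 reads. Globin reads also differed, with 9, 5417 and 4860 on HBB.

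EHD2 and EHD1 are paralogues, and the longest stretch they share is shown because it bears on how well reads of 1 gene can be told from those of the other. The coding sequences of EHD2 and EHD1 were identical at 77.0% of 1602 aligned bases, and the longest run that their transcripts share was 29 bases, against reads of 150 bases. The run, in capitals, covers coding bases 394 to 422 counted from the start codon in both genes, within bases 364 to 452, where 13 bases differ (GENCODE 29 transcripts, coding strand).
EHD2: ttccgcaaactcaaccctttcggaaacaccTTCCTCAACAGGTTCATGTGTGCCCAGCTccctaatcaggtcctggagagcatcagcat
EHD1: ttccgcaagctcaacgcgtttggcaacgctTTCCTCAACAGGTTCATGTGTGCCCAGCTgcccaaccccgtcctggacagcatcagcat
A read of full length over this stretch would therefore span differences between the genes. EHD1 and EHD3 shared at most 54 bases, EHD2 and EHD4 32, PACSIN1 and PACSIN2 42, PTRF and SDPR 24, and CAV1 and CAV2 16.

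Stretches before the starts of these EHD genes are shown as a description, with a GC content of 62.7% for EHD2 and 69.3% for EHD1. Any bearing of these stretches on the ratios was not tested. Both are RefSeq sequences of GRCh38.p14, 150 bases long, from 250 to 101 bases before the start. The bases nearer to the start were not searched. The GC box GGGCGG, searched on both strands, is in capitals. EHD2 lies at chr19:47713172-47713321 on the plus strand and EHD1, for 1 of its 2 RefSeq windows, at chr11:64878722-64878871 on the minus strand.
EHD2: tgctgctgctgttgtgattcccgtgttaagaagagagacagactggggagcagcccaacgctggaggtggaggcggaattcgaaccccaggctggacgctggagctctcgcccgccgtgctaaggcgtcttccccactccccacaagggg
EHD1: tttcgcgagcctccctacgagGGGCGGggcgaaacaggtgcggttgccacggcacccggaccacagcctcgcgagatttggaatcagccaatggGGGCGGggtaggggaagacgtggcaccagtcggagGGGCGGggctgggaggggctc
The EHD1 window held 3 GC boxes, 1 CCAAT box and 1 match to a G-quadruplex pattern of 4 runs of at least 3 G with gaps of 1 to 7 bases, and the EHD2 window held no match to any of these. Over 35116 such RefSeq windows, 25.8% held a GC box, 18.9% a CCAAT box and 12.4% the G-quadruplex pattern. A match is a run of letters in this window only. RefSeq windows were found for 6 of the 7 genes, and 1 window a gene was searched. That of CAV2 held 4 GC boxes and 1 G-quadruplex match, and that of CAV1 held 1 GC box. The PACSIN2 window held 2 CCAAT boxes, and the SDPR window no match to any of these. The windows of CAV1, CAV2 and SDPR did not lie wholly before the GENCODE start.

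PTRF (ENSG00000177469, chromosome 17), the cavin without which caveolae do not form, was the most abundant of the 7 genes in every library. The library labelled LINC00273 had 668 of its reads, the M2 library 598 and the control 2410. Per length this was 28.4, 33.3 and 87.3 CPM per kb. The first 2 libraries lay close together and the control stood apart above both.

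CAV1 (ENSG00000105974, chromosome 7), the main structural caveolin outside muscle, had 208 reads in the library labelled LINC00273, 288 in the M2 library and 725 in the control. Its level per length was 12.5 (95% exact Poisson interval 10.2 to 15.2), 22.7 (19.2 to 26.8) and 37.2 (33.5 to 41.3) CPM per kb, so that the intervals of the 3 libraries did not overlap. Such intervals are computed on fragments, 2 reads each, and cover counting error only, since without molecular identifiers PCR copies cannot be told from separate molecules. CAV2 (ENSG00000105971, next to CAV1), the caveolin that reaches the surface only together with CAV1, had 4 reads in each library, or 2 fragments, under the floor of 3 fragments. A difference in CAV2 was not detectable at this depth.

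EHD2 (ENSG00000024422, chromosome 19) had 126 reads in the library labelled LINC00273, 20 in the M2 library and 284 in the control. Its level per length was 5.72 (4.40 to 7.32), 1.19 (0.571 to 2.19) and 11.0 (9.26 to 13.0) CPM per kb. None of these intervals overlapped, and the M2 library was lowest by a wide margin. EHD1 (ENSG00000110047, chromosome 11), which acts in return of receptors from endosomes to the surface, had 271, 165 and 424 reads in the same order, or 9.70 (8.17 to 11.5), 7.74 (6.20 to 9.65) and 12.9 (11.2 to 14.8) CPM per kb. Its intervals in the library labelled LINC00273 and the M2 library overlapped, and its range over the libraries was far narrower than that of EHD2.

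PACSIN2 (ENSG00000100266, chromosome 22), an F-BAR protein, had 34 reads in the library labelled LINC00273, 26 in the M2 library and 75 in the control, a level per length of 1.70, 1.71 and 3.20 CPM per kb. SDPR (ENSG00000168497, chromosome 2), the cavin that extends and curves caveolar membrane, had 4, 0 and 6 reads, at or under the floor of 3 fragments in every library, which for the M2 library is 1.28 CPM. No ratio is given for SDPR or CAV2. In bulk RNA, fewer cells of a type and less RNA per cell cannot be told apart.

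**Figure D1:**
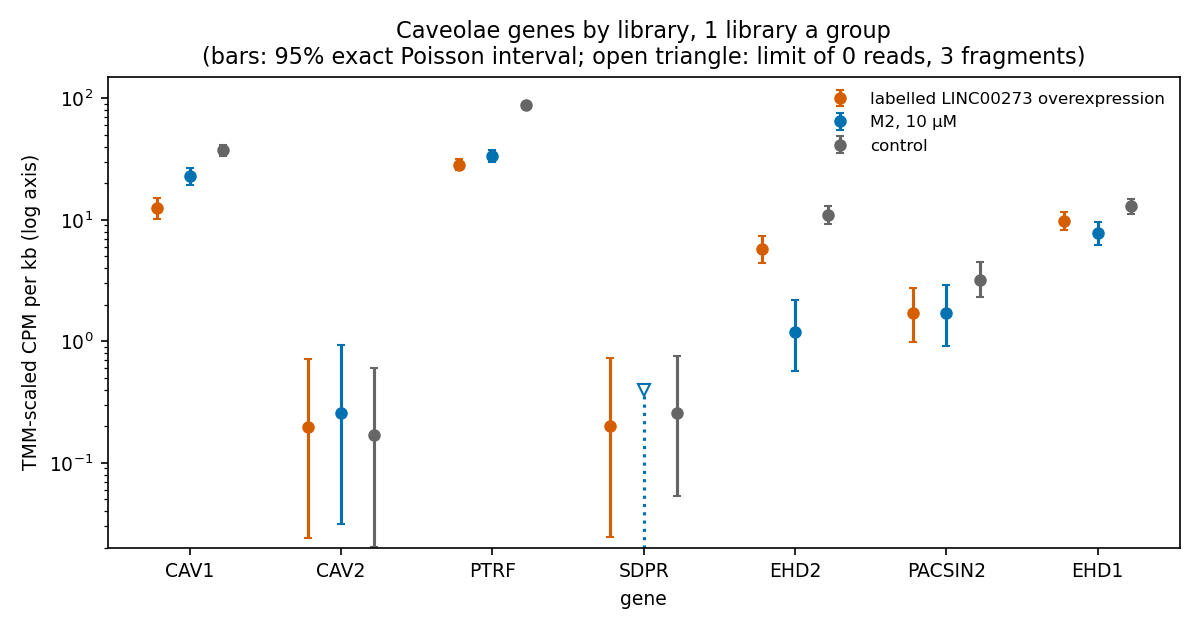
Level of each of the 7 caveolae genes in TMM-scaled CPM per kb (log axis) in the library labelled LINC00273, the M2 library and the control, 1 point a library with its 95% exact Poisson interval, and an open triangle at the limit of 3 fragments where a gene had 0 reads. PTRF stands highest in each library, CAV2 and SDPR lie at the floor, and EHD2 in the M2 library lies at 1.19 against 11.0 in the control.

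PTRF led the order of levels per length in each library, followed by CAV1 and EHD1. The intervals of CAV1 and EHD1 overlapped in the library labelled LINC00273. EHD2 came next in that library and in the control, where its interval overlapped that of EHD1. In the M2 library EHD2 lay below PACSIN2, though their intervals overlapped at 0.571 to 2.19 for EHD2 and 0.909 to 2.92 CPM per kb for PACSIN2. EHD2 was thus apart from PACSIN2 beyond counting error in every library other than that of M2. The 7 genes together had 1315 reads in the labelled library, 1101 in the M2 library and 3928 in the control, which is 214, 235 and 545 CPM.

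Shares within a library do not depend on its scaling. EHD2 made up 31.7% (exact binomial 95% interval 25.3 to 38.6) of the reads on EHD1 and EHD2 in the library labelled LINC00273, 10.8% (5.28 to 18.9) in the M2 library and 40.1% (35.0 to 45.4) in the control. The interval of the M2 library lay below the others, which overlapped each other. EHD2 was chosen for its low reads in the M2 library, so its low share there is a description and no separate support. The 2 genes have nearly the same GC content, 61.6% in EHD2 and 61.1% in EHD1. Over all 4 EHD genes, the share of EHD2 was 15.0%, 4.14% (2.0 to 7.47) and 17.1% in the same order of libraries. EHD4, a paralogue found on early endosomes and caveolae, took 52.0%, 61.7% and 57.0% of those reads, and EHD3 had 6, 0 and 6 reads.

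**Figure D2:**
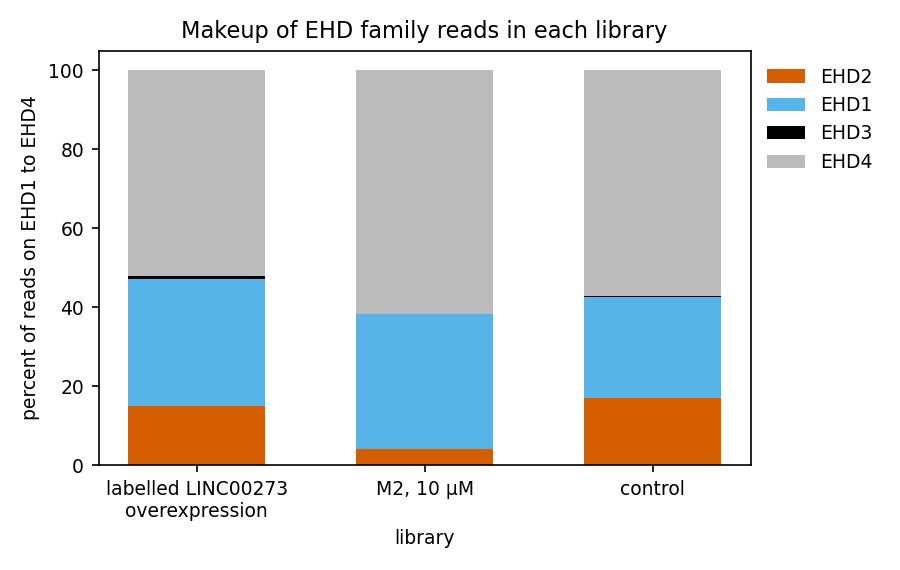
Percent of the reads on EHD1 to EHD4 that fell on each gene, stacked to 100%, in the library labelled LINC00273, the M2 library and the control. EHD2 takes 15.0%, 4.14% and 17.1%, while EHD4 takes most of the reads in each library.

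The coat genes had a different split. CAV1 made up 23.7% (19.8 to 28.0) of the reads on CAV1 and PTRF in the library labelled LINC00273, 32.5% (28.2 to 37.1) in the M2 library and 23.1% (21.1 to 25.3) in the control. The share was higher in the M2 library than in either other library beyond counting error. CAV1, with a GC content of 43.0%, and PTRF, with 59.9%, differ in base composition, and the ratios of all genes moved with it, as given below.

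PTRF, in the library labelled LINC00273 against the control, fell 3.07-fold (log2 ratio −1.62, 95% exact binomial interval −1.80 to −1.44) and CAV1 fell 2.97-fold (−1.57, −1.90 to −1.25). EHD2 stood at −0.94 (−1.39 to −0.50), inside the 2-fold bound, and EHD1 at −0.41 (−0.73 to −0.09). PACSIN2 had too few reads for the size rule, with a log2 ratio of −0.91 (−1.85 to −0.07). The size rule takes genes that reach 100 reads in either library, or both, and differ at least 2-fold, and 4 of the 7 genes reached the read minimum. Of these 4, 2 were lower and 0 higher, with a median log2 ratio of −1.26, against 6.61% of 3842 genes lower, 5.18% higher and a median of −0.21 over all of them. PTRF and CAV1 held ranks 32 and 33 from the lowest ratio.

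In the M2 library against the control, EHD2 fell 9.23-fold (log2 ratio −3.21, −4.30 to −2.29), rank 2 from the lowest of 3805 genes, which is how it was selected. PTRF fell 2.62-fold (−1.39, −1.58 to −1.21). CAV1 was 1.64-fold lower at −0.71 (−1.0 to −0.43) and EHD1 1.67-fold lower at −0.74 (−1.12 to −0.36), both inside the 2-fold bound. PACSIN2 stood at −0.91 (−1.96 to 0.01) and was again under the read minimum. Of the 4 genes with enough reads, 2 were lower and 0 higher, with a median of −1.06, while 8.88% of all 3805 genes were lower and 17.4% higher and their median was −0.02. Since EHD2 was chosen on this contrast, nothing is read from that count. Both comparisons use the same control library, so they are not independent of each other.

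The M2 library against the library labelled LINC00273 leaves the control out. EHD2 fell 4.81-fold there (log2 ratio −2.27, −3.39 to −1.29), rank 2 from the lowest of 3404 genes. CAV1 was 1.81-fold higher (0.86, 0.49 to 1.24), inside the 2-fold bound, and EHD1 stood at −0.33 (−0.73 to 0.08). PTRF stood at 0.23 and PACSIN2 at 0.00, and both values turned below 0 when scaled to the total count. 1 of the 4 genes with enough reads was thus lower and 0 higher, against 1.47% lower and 1.65% higher among all genes, whose median was 0.29. The M2 value of EHD2 is shared with the contrast on which it was chosen.

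**Figure D3:**
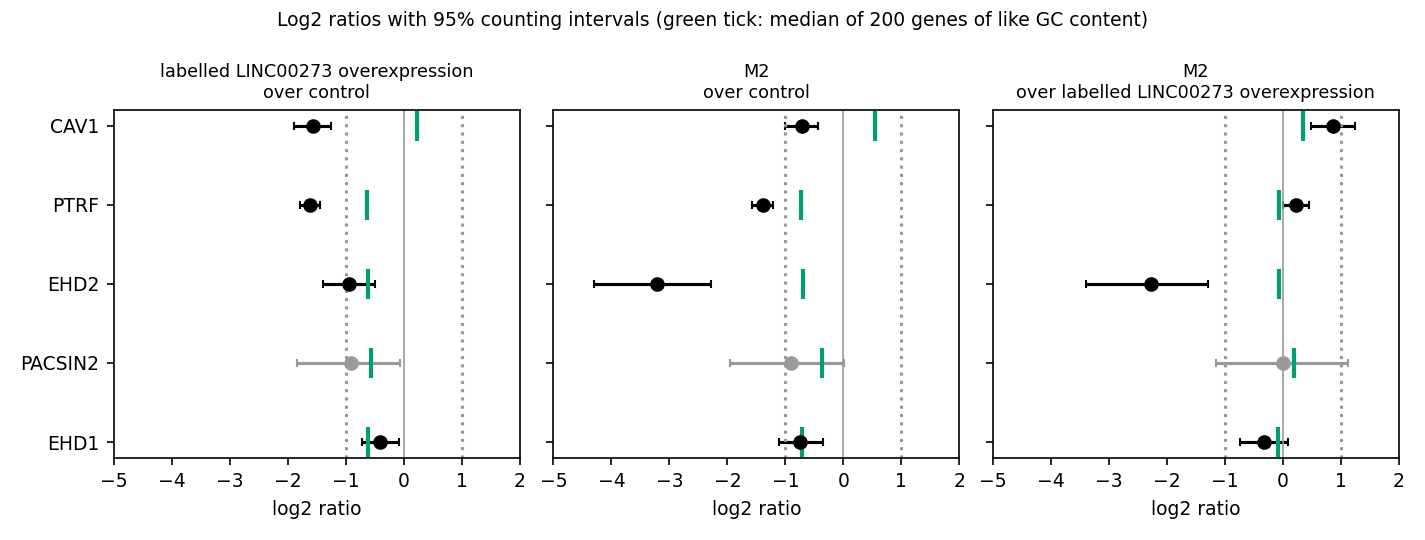
Log2 ratio of the 5 caveolae genes above the floor in 3 comparisons, the library labelled LINC00273 over the control, M2 over the control, and M2 over the labelled library. Bars are 95% counting intervals, grey points lie under 100 reads in both libraries, dotted lines mark 2-fold, and green ticks give the median of the 200 genes nearest in GC content; EHD2 lies at −3.21 and −2.27 in the comparisons with M2, far left of its tick.

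Ratios to the control moved with base composition over all genes. With genes cut into 5 equal classes of GC content, the class lowest in GC had a median log2 ratio of 0.48 in the library labelled LINC00273 and 0.93 in the M2 library, and the class highest in GC had −0.62 and −0.66. EHD2, PTRF and EHD1 lie in the highest class and CAV1 in the next to lowest. Relative to the median of the 200 genes nearest in GC content, EHD1 stood at 0.20 in the library labelled LINC00273, which turns its direction, and at −0.02 in the M2 library.

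The same reference set CAV1 further down and PTRF closer to its neighbours. CAV1 in the library labelled LINC00273 stood at −1.80 relative to genes of like GC content, rank 11 from the lowest of 3798, and PTRF at −0.99, which is inside the 2-fold bound. In the M2 library CAV1 stood at −1.26, past 2-fold, and PTRF at −0.66, no longer past it. EHD2 stood at −2.51 in the M2 library, rank 1 of 3763, and at −0.32 in the labelled library. The median of the 4 caveolae genes with enough reads was −0.65 in the labelled library and −0.96 in the M2 library on this reference. The part of base composition in the ratios of PTRF and EHD1 was not tested beyond this centring.

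The same ratios can be set beside genes within 2.5 percentage points of the GC content of EHD2, as a description, since EHD2 was chosen for its ratio with M2. Of 327 such genes with enough reads, EHD2 itself included, 87 (26.6%) were at least 2-fold lower in the M2 library than in the control, their median log2 ratio was −0.71, and 1, EHD2, was at or below −3.21. For the library labelled LINC00273, 59 of 327 were at or below its −0.94 and 43 (13.1%) were at least 2-fold lower.

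**Figure D4:**
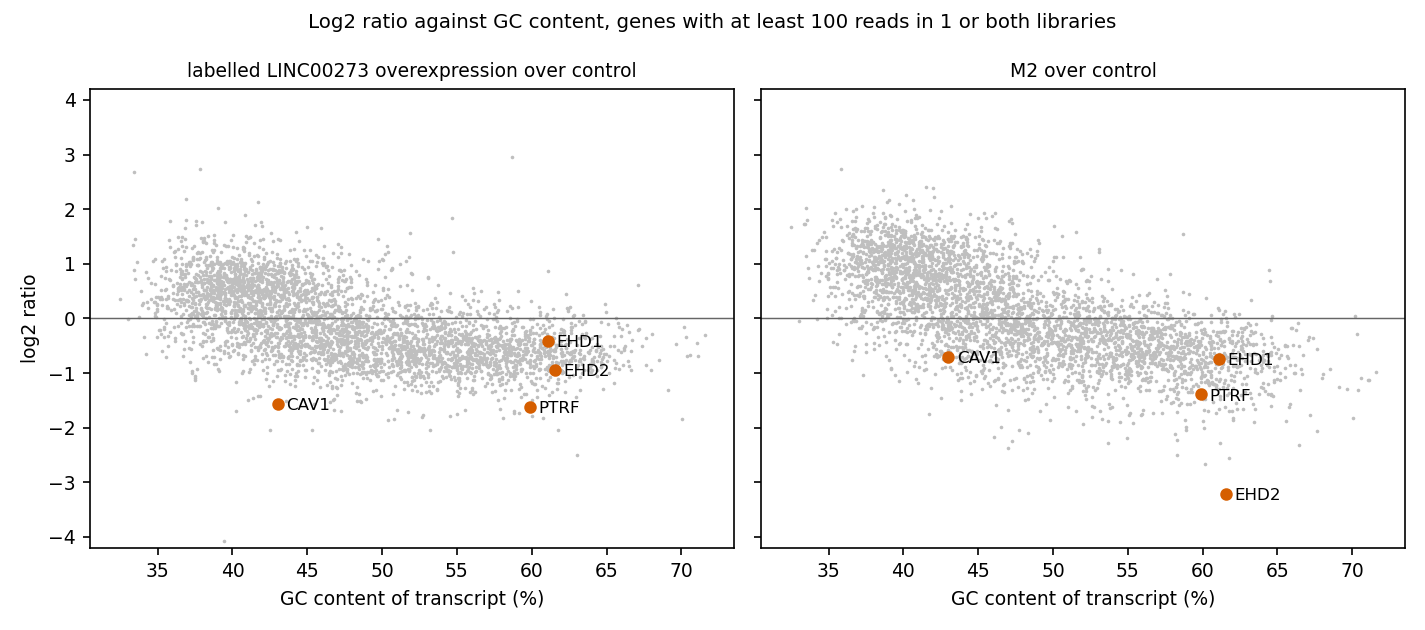
Log2 ratio against the control over the GC content (%) of 1 representative transcript a gene, for genes past the minimum of 100 reads, in the library labelled LINC00273 on the left and the M2 library on the right. Ratios fall as GC content rises; CAV1, at 43.0%, lies near the lower edge of the cloud, and EHD2, at 61.6%, lies under it with M2.

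The authors' deposited table of M2 against control, which holds 670 genes, lists 1 of the 7 genes, EHD2, with a log2 ratio of −3.13. The authors' deposited table for LINC00273 overexpression, with 809 genes, lists 0 of the 7. Of the related lists, the authors' deposited M2 table holds RAB11FIP1, a Rab11 effector among the EHD1 partners, at 2.28, ROR1 at −3.11 and PACSIN3, a muscle-enriched relative of PACSIN2, at −2.63. The reads of PACSIN3 were 26 in the library labelled LINC00273, 6 in the M2 library and 60 in the control, those of RAB11FIP1 4, 12 and 4, and those of ROR1 16, 2 and 28, all under the minimum of 100.

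4 genes are given that lay near EHD2 by the distance of their pair of log2 ratios to the control, out of 3565 protein-coding genes with enough reads over the 3 libraries. SDC1, the cell-surface proteoglycan syndecan-1, was nearest at a distance of 0.54, with 63 reads in the library labelled LINC00273, 14 in the M2 library and 137 in the control. AKT2, a kinase of insulin signalling, followed at 0.71 with 51, 14 and 122 reads, and OLFML3 at 0.95 with 67, 18 and 134. SPARC, a secreted matrix protein, lay at 1.0 with 1788, 447 and 3272 reads. 3 of these 4 rest on fewer than 20 reads in the M2 library.

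The next genes on the chromosome, taken from GENCODE 29, showed no single pattern. CAV1 lies between CAV2 and MET, the receptor of hepatocyte growth factor, and MET had 186 reads in the library labelled LINC00273, 224 in the M2 library and 124 in the control. MET thus had its fewest reads in the control, where CAV1 had its most. EHD2 lies between BICRA, with 6, 2 and 7 reads, and NOP53, with 6, 8 and 18, both too low for the read minimum. PTRF lies between STAT3, with 571, 585 and 1243 reads, and ATP6V0A1, with 439, 333 and 612. PACSIN2 shares 155 exon bases with ARFGAP3, which lies on the same strand and had 2, 2 and 4 reads. On the opposite strand, SDPR shares 233 exon bases with AC098617.1 and CAV2 shares 76 with AC002066.1. Both of these antisense genes had 0 reads in every library. The strand setting of the counting is not given in the sources used here.

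Few of the remaining caveolae genes were measured well. CAV3, the muscle caveolin, had 2 reads in the library labelled LINC00273, 0 in the M2 library and 4 in the control. The cavins PRKCDBP (2, 2 and 4 reads) and MURC (5, 4 and 2) and PACSIN1 (9, 2 and 5) were as low. EHD4 alone of 7 such genes passed the minimum, with 436, 298 and 946 reads; it stood at −0.89 (−1.12 to −0.65) in the labelled library and fell by 1.05 on the log2 scale (−1.32 to −0.78) with M2. Relative to genes of like GC content it stood at −0.67 with M2, inside the 2-fold bound. Among all genes 8.88% were at least 2-fold lower with M2 and 17.4% higher.

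The linkers, kinases and scission genes of caveolae include filamin A (FLNA), which ties CAV1 to actin, the CAV1 kinases SRC and FYN, the dynamins, and the EHD-binding EHBP1 and EHBP1L1. With the LINC00273 label 0 of the 7 with enough reads passed 2-fold either way (median −0.52), where 6.61% of all genes were lower and 5.18% higher. With M2, EHBP1 was higher (146 reads in the M2 library against 101 in the control, log2 ratio 1.15), and SRC (38 against 148 reads, −1.34) and EHBP1L1 (29 against 108 reads, −1.28) were lower, with a median of −0.64, beside 17.4% higher and 8.88% lower among all genes. FLNA stood at −0.98 and DNM2 at −0.64. None of these 3 calls kept a 2-fold difference relative to genes of like GC content, where EHBP1 stood at 0.45, SRC at −0.63 and EHBP1L1 at −0.55.

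Flotillins build membrane domains apart from caveolae. FLOT1 had 1817 reads in the library labelled LINC00273, 1907 in the M2 library and 5395 in the control, and FLOT2 743, 624 and 2156. Both fell in the labelled library, by 1.34 and 1.31 on the log2 scale, and FLOT2 fell with M2 by 1.17, while FLOT1 stood at −0.88. Among all genes 6.61% were at least 2-fold lower in the labelled library and 8.88% with M2. All of these flotillin ratios lay inside the 2-fold bound relative to genes of like GC content. Of the 12 recycling partners of EHD1, 6 had enough reads. RAB8A, a small GTPase of surface delivery, was lower in the labelled library (442 reads against 1102 in the control, −1.09, and −0.54 relative to genes of like GC content). It was the only 1 of the 6 past 2-fold there, and their median was −0.52. Over all genes the median was −0.21, with 6.61% lower and 5.18% higher. With M2, 0 of the 6 passed 2-fold either way, with a median of −0.13, beside a median of −0.02, 17.4% higher and 8.88% lower over all genes. At 6 genes, and likewise at the 7 above, such counts say little about a list.

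Clathrin carries the other main uptake route. With M2, 4 of its 16 measured genes rose and 2 fell (median log2 ratio −0.41), not far from the 17.4% higher and 8.88% lower of all genes. The clathrin assembly protein PICALM stood at 1.39 (4118 reads against 2418 in the control), the scaffold ITSN2 at 1.38, the heavy chain CLTC at 1.16 and EPS15 at 1.06, while the membrane-bending SNX9 fell by 1.67 (38 reads against 186) and EPS15L1 by 1.23. PICALM (1.11), ITSN2 (1.27) and SNX9 (−1.67) remained past 2-fold relative to genes of like GC content, and CLTC, EPS15 and EPS15L1 did not. In the library labelled LINC00273, 1 gene was lower, the adaptor subunit AP2M1 (3299 reads against 9362 in the control, −1.27; −0.63 relative to genes of like GC content), and 0 were higher, with a median of −0.40, close to the 6.61% lower and 5.18% higher of all genes. In the M2 library against the labelled library, SNX9 was lower (−1.01), and no gene of the other lists passed 2-fold. Of all genes 1.47% were lower there and 1.65% higher.

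**Figure D5:**
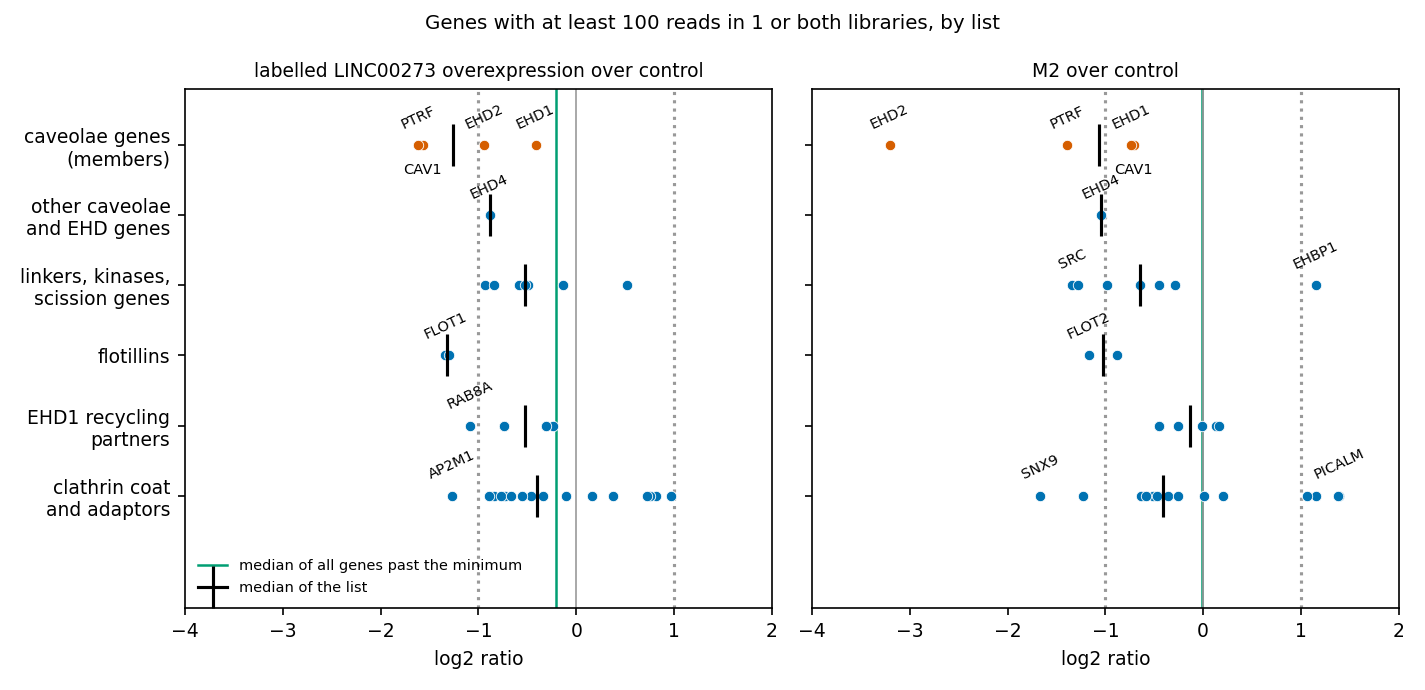
Log2 ratio against the control of each gene past the minimum of 100 reads, by list, in the library labelled LINC00273 on the left and the M2 library on the right. Black ticks are list medians, the green line is the median of all genes past the minimum, and dotted lines mark 2-fold. The caveolae genes have medians of −1.26 and −1.06, against −0.21 and −0.02 over all genes. Relative to genes of like GC content these medians are −0.65 and −0.96, and the M2 values include EHD2, which was chosen on that contrast.

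Markers of other cells rich in caveolae were low in every library, apart from MYH11. The 5 endothelial markers in the tables (CDH5, VWF, KDR, TEK and CLDN5) summed to 9.77 CPM in the library labelled LINC00273, 6.19 in the M2 library and 6.52 in the control, and CLDN5 was at 0 in the control. The 5 adipocyte markers summed to 3.91, 1.49 and 1.53, with 3 of them at 0 in the control and 1 in the M2 library, and the 5 smooth muscle and pericyte markers to 19.4, 13.2 and 17.9. MYH11 made up most of the smooth muscle and pericyte sums, with 91, 52 and 96 reads, more than PACSIN2 in every library. In the labelled library all 3 sums were above those of the control, and with M2 all 3 were below them. They rest on few reads, 60, 29 and 47 for the endothelial and 24, 7 and 11 for the adipocyte markers. No interval was computed for these sums, so nothing is read from their directions. The 7 caveolae genes summed to 214, 235 and 545 CPM in the same order of libraries. The 7 blood markers summed to 6.68, 1415 and 816. The part of these markers in the ratios was not tested.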

How the data were processed

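Total RNA was depleted of ribosomal RNA (RiboCop) and sequenced in pairs of 150 bases on an Illumina instrument, per the labels' protocols. Per the submitters' processing notes, the genome build was hg19 and the software was featureCounts 1.5.2, STAR, Bowtie2 2.2.4, Trimmomatic and DESeq2. Their roles, annotation and strand setting were not given in the sources used here. The authors deposited a scaled signal per gene and library. Within each library the deposited values were whole multiples of 1 step (100% within a tolerance of 0.01), and dividing by it gave the reads used here. The design had assumed counts. The authors' log2 ratios are quoted from their deposited tables.

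TMM factors over the 3 libraries (edgeR 4.0.16 in R 4.3.3) scaled the reads, given as CPM. Most low genes had an even number of reads, so intervals and the floor of 3 fragments were computed on reads divided by 2. Ratios take no prior. No count test was run, because 1 library a group leaves no residual degrees of freedom, and a size rule was used. GC content and length came from 1 representative transcript a gene (GENCODE 29 on GRCh38, matched by Ensembl ID, the principal coding transcript first), and sequences from RefSeq and GENCODE. Ratios, calls by the size rule, intervals and GC centring were tested on simulated data with library sizes taken as known, so the scaling itself was not tested. Alternatives were other scalings, GC and length centring, a prior, other read minimums and other thresholds. All members are named, with 5 related lists and the genes nearest to EHD2 in their ratios, of which 1 is not reported here. The members and the lists were chosen with earlier results of these data known.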

Additional observations from a re-analysis of the deposited data

How the results depend on the processing

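No paired analysis was possible because each group has 1 library. In the library labelled LINC00273 overexpression against the control, 2 caveolae genes were past the size rule, against 1 (CAV1) when each ratio was taken relative to genes of like GC content (GC centring) and 0 at 4-fold. With M2 against the control the count of 2 became 1 with a minimum of 500 reads (PTRF), 4 at 1.5-fold and 1 at 4-fold (EHD2), and GC centring gave 2 again, but EHD2 and CAV1 in place of EHD2 and PTRF. With M2 against the labelled library the count of 1 became 0 with a minimum of 500 reads and 2 at 1.5-fold, where CAV1 was higher. The other settings left each count within 1.5-fold. Over all genes the shares moved too. At 1.5-fold, 23.6% were lower and 29.8% higher with M2 against the control, and 5.43% and 20.4% against the labelled library. At 4-fold, 0.499% were lower and 0.42% higher with M2 against the control, and 0.234% and 0.156% in the labelled library. With a minimum of 500 reads, 5.74% were lower and 20.1% higher with M2 against the control, and 0.827% and 0.91% against the labelled library. Of 120 ratios of single genes under alternatives, 103 stayed within their counting interval and 17 moved, 6 of them with GC centring, 6 with the total count, 3 with length centring and 2 with the total count without RN7SL1 and RN7SK. Over all 9 settings EHD2 ranged from −3.37 to −2.51 with M2 against the control and from −0.98 to −0.32 in the labelled library, CAV1 from −1.26 to −0.31 and from −1.80 to −1.05, and PTRF from −1.56 to −0.66 and from −1.66 to −0.99. EHD1 ran from −0.45 to 0.20 in the labelled library. Total-count scaling shifted the overall median log2 ratio by 0.52 in the labelled library, 0.26 with M2 and −0.26 between those libraries, and leaving RN7SL1 and RN7SK out of the total shifted it by 0.18, −0.17 and −0.35. Of all genes past the size rule in the labelled library, 43.9% were higher, against 95.7% with the total count, 74.6% with RN7SL1 and RN7SK left out and 58.6% with the authors' scaling and 60.5% with length centring. With M2 the share was 66.2%, against 85.4% and 47.2% with those totals, 39.6% with GC centring and 55.7% with length centring. Between those libraries it was 52.8%, against 13.1% and 8.28% with those totals, 64.7% with TMM from protein-coding genes, 13.3% with GC centring and 10% with length centring. The share of all genes at least 2-fold lower ran over scalings and centrings from 0.963% to 7.96% in the labelled library, from 4.36% to 13.8% with M2 and from 1.2% to 4.23% between those libraries, and the share higher from 3.37% to 21.4%, from 4.17% to 25.5% and from 0.382% to 2.2%. Without replicates none of these ranges includes biological spread.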
